A study of Mus musculus with 90 samples.

Results

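The genes of ribosome biogenesis and RNA polymerase I were followed across the liver transcriptomes of all 5 RNA experiments of the study. They were 38 genes chosen by symbol, out of 24308 symbols in the expression table, and each was represented by the RefSeq transcript with the highest mean level. By role they comprised the transcription factor Myc, 6 genes of RNA polymerase I and its factors, 8 genes of the small nucleolar ribonucleoproteins (snoRNPs), 8 of small-subunit processing, 11 of large-subunit processing, and 4 of abundant nucleolar proteins.

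Ribosomes are assembled in the nucleolus, where RNA polymerase I, recruited by UBTF and RRN3, transcribes the long precursor of the ribosomal RNAs. The precursor is methylated and pseudouridylated by snoRNPs, cut and folded by separate sets of small-subunit and large-subunit factors, and joined to ribosomal proteins made in the cytoplasm. The pathway consumes much of the energy of a growing cell, follows nutrient and insulin signals through mTOR, and is a classic target of MYC. In the liver, ribosomal RNA and protein content are known to fall with fasting and to recover with refeeding.

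RNA was sequenced from 54 livers of single mice held on night-restricted feeding (NRF), in which food is withheld in the light phase. The labels give the strain as C57BL/6 throughout, and the methods name C57BL/6N for the NRF, injected, and L-GRKO mice and C57BL/6J as the background of the L-IRSdKO mice. In the NRF experiment, 10-week-old males were trained for 4 days and killed at ZT10 before food (n = 2), at ZT14 without food (ZT14-unfed, n = 2), or at ZT14 after food was returned at ZT12 (ZT14-fed, n = 2), where ZT counts hours from lights on. In the injected experiment, 10-week-old mice received an injection 30 min before ZT12 and were examined at ZT14, namely unfed with PBS, fed with PBS, fed with dexamethasone (dex, a synthetic glucocorticoid, 1 mg/kg), fed with S961 (a peptide antagonist of the insulin receptor), and fed with dex and S961 together, with 4 mice each. The S961 dose is written as 44 nM per mouse in the sample labels and as 44 nmol/kg in the methods. In 7 of the 8 libraries titled S961 the treatment label reads S962, S963, S964, or S965, and all were taken as S961 from their titles.

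In the L-GRKO experiment, all mice carried floxed alleles of the glucocorticoid receptor gene, were unfed at ZT14, and had received an AAV8 vector whose hepatocyte-restricted TBG promoter drove either GFP or Cre, with 4 mice each. The vector was given 2 weeks before NRF according to the labels and 12 days before according to the methods, to adult mice. In the L-IRSdKO experiment, all mice were 10 weeks old, carried floxed Irs1 and Irs2, and were fed and given dex at 1 mg/kg, with 4 mice without and 4 with Cre under the albumin promoter, which acts in hepatocytes. In the obesity experiment, C57BL/6 males were given chow (lean) or high-fat diet (diet-induced obese, DIO) for 10 weeks from 5 weeks of age and then 4 days of NRF, and were unfed or fed at ZT14, with 3 mice in each of the 4 groups.

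Levels are given in RPKM, that is read numbers divided by the length of the transcript and by the depth of the library, as the authors computed them, so that levels of different genes are per length. The number of reads behind each value is unknown, although the study lists read totals of libraries. The steps between low values gave estimates of depth from 0.549 to 1.52 times that of the first library of an experiment. These estimates are rough. For fed DIO mouse 1 the estimate was 1.14, well below the ratio of the listed totals. Differences were tested as log2(RPKM + 0.5) with limma, each experiment fitted on its own over all genes whose mean reached 0.5 RPKM, and the FDR is the Benjamini-Hochberg adjusted p over all those genes. A gene was called higher or lower at FDR < 0.01 in the NRF experiment and at FDR < 0.05 in the others, and each comparison was repeated at the other of these limits. All 5 hepatocyte markers (Alb, Apoa1, Ttr, Serpina1c, Cyp2e1) were present in every group, but their summed level was 2040 to 2650 RPKM in the L-IRSdKO experiment against 29500 to 76200 RPKM in the other 4 experiments. The median level of the 38 genes over an experiment ran from 3.70 RPKM in the NRF livers to 17.9 RPKM in the L-IRSdKO experiment, and Fbl, the snoRNP methyltransferase fibrillarin, ranged from 0.119 to 0.255 RPKM in the NRF livers and from 18.8 to 21.9 RPKM in the L-GRKO experiment. Levels were therefore compared within an experiment only. In the Cre-treated livers, Nr3c1, the gene of the glucocorticoid receptor, measured 3.93 to 5.35 RPKM against 12.8 to 16.2 RPKM with GFP. Irs1 measured 0.149 to 0.321 RPKM in the L-IRSdKO livers against 2.21 to 4.73 RPKM in their controls, whereas Irs2 overlapped, at 0.272 to 1.002 against 0.614 to 5.61 RPKM. Sums over 8 marker lists of other cell types were compared in each pair of groups tested. Those that did not overlap are given beside the results.

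MYC and its partner MAX bind the palindrome CACGTG, an E-box that also serves other factors such as BMAL1 with CLOCK and USF. The promoter windows of the genes, 250 bases before to 50 bases after the RefSeq start on GRCm38.p6, were searched for these letters on both strands because the genes moved together after a meal. An entry was found for 32 of the 38 genes, and 6 of them (18.8%) held CACGTG, against 10.6% of 8865 windows of genes tested in the injected experiment and 7.24% of all 27025 windows. Other promoter palindromes that were searched, the CGCG element and that of nuclear respiratory factor 1, were in none of the 32 windows, against 1.15% and 2.19% of the windows of tested genes. Myc, Fbl, Rrp12, Bop1, Rrs1, and Npm1 had no entry. The stretches around the matches, 5′ to 3′ on the strand of the gene and with the matched letters in capitals, are shown for reference to the results of the same genes below. Those of Nop2 (chr6:125131786-125131865, plus strand) and Rrn3 (chr16:13780449-13780528 and chr16:13780614-13780693, plus strand) lie before the start.
Nop2: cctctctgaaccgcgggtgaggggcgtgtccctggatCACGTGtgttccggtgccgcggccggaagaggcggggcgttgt
Rrn3, first match: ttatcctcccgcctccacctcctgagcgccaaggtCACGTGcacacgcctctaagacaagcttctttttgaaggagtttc
Rrn3, other match: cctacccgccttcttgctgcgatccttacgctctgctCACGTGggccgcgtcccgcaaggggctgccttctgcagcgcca
In the other genes the match lay just past the start, and 30 bases are given for Mybbp1a (chr11:72441347-72441376, plus strand), Utp20 (chr10:88826765-88826794, minus strand), Wdr43 (chr17:71616220-71616249, plus strand), and Pes1 (chr11:3963965-3963994, plus strand).
Mybbp1a: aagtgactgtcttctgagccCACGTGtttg
Utp20: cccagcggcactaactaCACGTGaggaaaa
Wdr43: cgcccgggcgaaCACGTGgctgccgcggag
Pes1: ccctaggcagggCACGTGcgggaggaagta
A match of letters is a description and was not tied to binding of any factor here. Of the 6 genes with the letters, Nop2, Mybbp1a, Utp20, and Wdr43 were called in at least 1 meal comparison, beside 26 of all 38 genes. Pes1 and Rrn3 were called in none, although Rrn3 was called in injected mice 1 to 3 alone. Nop56 and Nop58, called as often after meals as Nop2 and Mybbp1a, held no match.

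A meal was compared with its absence at ZT14 in 4 separate sets of mice. Of the 36 genes tested in all 4, 31 had a higher mean level in fed than in unfed livers every time, against 29.7% of the 10569 genes tested in all 4. The genes without this pattern were Myc, the UBTF gene Ubtf, the polymerase subunit gene Polr1c, and the abundant nucleolar genes Ncl (nucleolin) and Npm1 (nucleophosmin), and Fbl, which was untested in the NRF livers, was also below 0 once. No gene was called lower in any of the 4. At the limits used, 26 of the 38 genes were called higher in at least 1 of the injected, lean, and DIO meal comparisons, against 18.8% of the 11099 genes tested in these 3. In all 3, 4 genes were called (Mybbp1a, Nop2, Nop56, and Nop58), against 0.739%. In whole liver, a lower level from fewer cells of a type and one from less RNA per cell cannot be told apart.

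**Figure D1:**
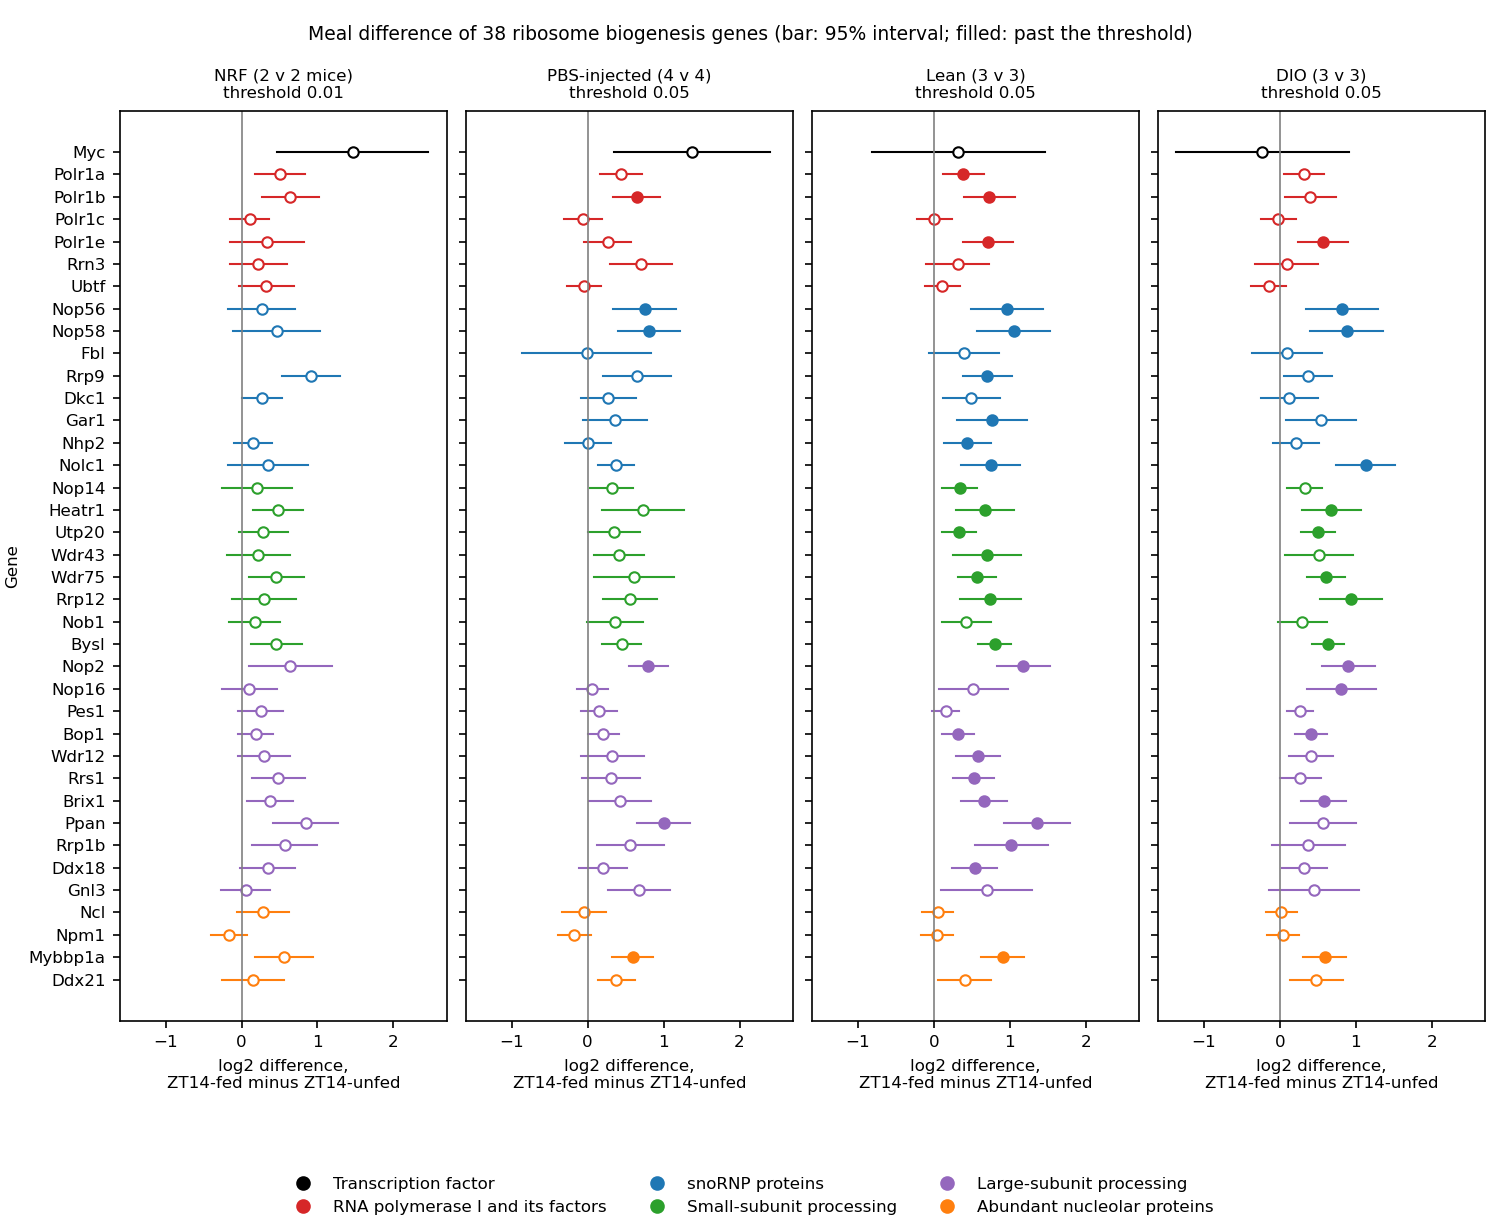
Differences between ZT14-fed and ZT14-unfed livers on the log2(RPKM + 0.5) scale (horizontal axes) for the 38 genes (rows, coloured by role) in the NRF, PBS-injected, lean, and DIO mice, with bars for the 95% interval and filled points for genes past the threshold printed above each panel. Filled points number 0, 6, 25, and 14 from left to right, all right of 0, and Polr1c, Ubtf, Ncl, and Npm1 are unfilled in every panel.

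In vehicle-injected mice, 6 of the 38 genes were higher in fed than in unfed livers at FDR < 0.05, against 2.55% of the 11248 genes tested. The median difference was 0.37 over the 38 genes and 0.10 over all genes, and 33 of the 38 were above 0 against 66.9% of all genes. After scaling the libraries to a common median ratio, the median over all genes went from 0.10 to 0.00, that of the 38 genes was 0.27, and the share of higher genes among all calls went from 81.5% to 51.6%. Nop2, Ppan, and Mybbp1a were still called, against 1.01% of all genes higher, and 31 of the 38 were above 0.

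Ppan, a large-subunit assembly factor, measured 3.58, 3.66, 4.22, and 6.51 RPKM in the unfed PBS mice and 8.67, 9.22, 10.1, and 9.03 RPKM in the fed PBS mice. All fed mice lay above all unfed mice, and unfed mouse 4 was the highest of its group. The log2 difference was 1.00 ± 0.17 (SE, n = 4 per group, FDR = 0.0053), a 2.00-fold rise on this scale. Nop2, the gene of an RNA methyltransferase of the large subunit, was 6.68, 7.16, 7.12, and 5.86 RPKM unfed and 12.5, 10.4, 12.3, and 13.0 RPKM fed. The groups were again apart, with a difference of 0.80 ± 0.12 (FDR = 0.0042, 1.74-fold).

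Nop58 and Nop56 encode the paired core proteins of the box C/D snoRNPs, which guide methylation. Nop58 rose from 12.04, 10.6, 9.22, and 9.48 RPKM to 21.5, 16.3, 17.6, and 18.1 RPKM, a difference of 0.80 ± 0.19 (FDR = 0.031). Nop56 rose from 6.27, 7.03, 6.23, and 4.76 RPKM to 10.8, 8.43, 12.1, and 11.0 RPKM, a difference of 0.75 ± 0.20 (FDR = 0.042). Their fed and unfed values did not overlap. Other snoRNP members were not called, and Fbl, their partner, differed by −0.01 with an FDR of 0.99. Fbl was low and spread widely, at 0.419, 0.88, 1.24, and 3.56 RPKM unfed and 1.105, 1.02, 0.973, and 1.89 RPKM fed. Mouse 4 was the highest in both groups, so a change of Fbl could have been missed.

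Polr1b, the gene of the second largest polymerase I subunit, rose from 3.65, 4.13, 3.73, and 3.22 RPKM to 6.44, 6.70, 6.29, and 4.82 RPKM, a difference of 0.64 ± 0.15 (FDR = 0.027). Mybbp1a, a nucleolar protein that binds MYB and takes part in rRNA synthesis, rose from 10.7, 10.9, 9.55, and 13.7 RPKM to 16.9, 14.3, 18.3, and 18.9 RPKM, a difference of 0.59 ± 0.13 (FDR = 0.017). In both genes the lowest fed mouse lay above the highest unfed mouse. The initiation factor gene Rrn3 had a difference of 0.71 with an FDR of 0.053, and Polr1c (−0.06) and Ubtf (−0.05) showed values near 0.

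In all, fed and unfed PBS values did not overlap in the direction of a higher fed level for 17 of the 38 genes, against 11.0% of all genes, and 23 had an unadjusted p under 0.05 against 19.3%. Nop2 and Ppan alone passed when any 1 of unfed PBS mice 1, 2, or 3 was left out, and 3 when fed PBS mouse 1 or 3 was left out. Of all genes, 0.862%, 0.595%, 0.836%, 1.13%, and 1.34% were then called higher, in the same order. The library numbers in the labels show that mice 1 to 3 of each injected group form one series and mouse 4 another. In mice 1 to 3 alone, 14 genes were called against 4.87% of all genes, Rrn3 (0.80, FDR = 0.010) and Myc (2.00, FDR = 0.020) among them, and all 6 genes named above remained. With a term for the library series over all mice, 15 were called against 7.41% of all genes. In the pair of mice 4, with no replicate, 31 of the 38 genes were higher in the fed mouse with a median of 0.33. The 5 Kupffer cell markers summed to 62.6 to 98.5 RPKM in the fed PBS mice against 45.1 to 58.7 RPKM unfed, and the 5 markers of proliferating cells to 1.90 to 3.68 against 0.78 to 1.5 RPKM, with no marker at 0. Their part in the differences was not tested. In the fed mice given dex and S961, the Kupffer cell sum was 50.8 to 59.8 RPKM and overlapped that of the unfed mice.

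**Figure D2:**
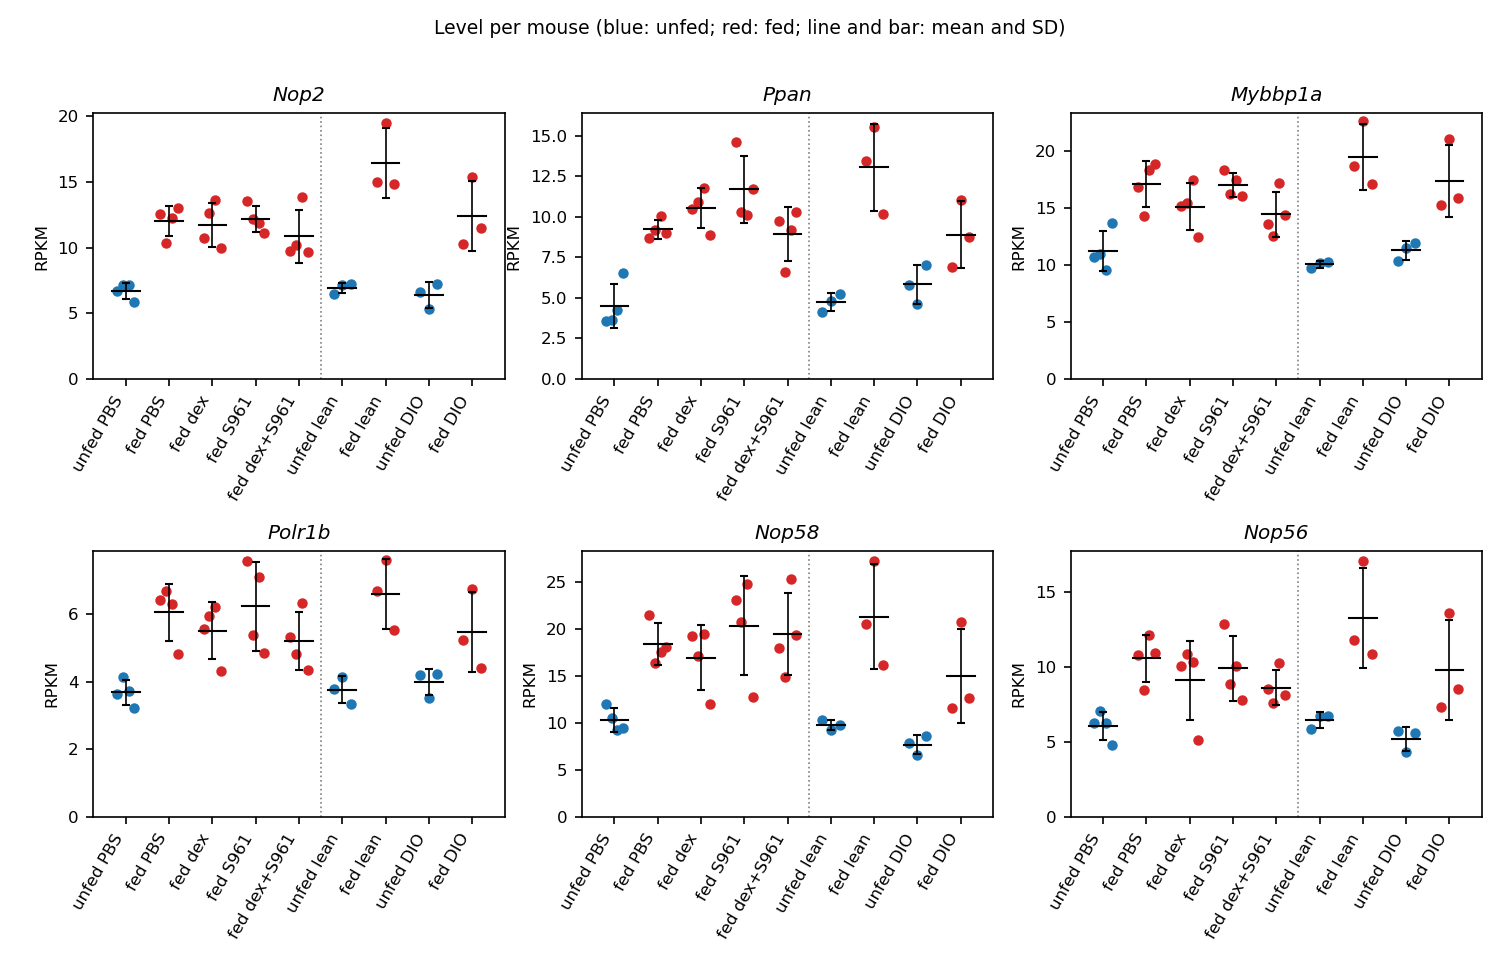
Levels of Nop2, Ppan, Mybbp1a, Polr1b, Nop58, and Nop56 in RPKM (vertical axes, from 0) in each mouse of the injected, lean, and DIO groups, with unfed mice in blue, fed mice in red, and lines and bars for the mean and SD. In the fed PBS and fed lean groups every point of these 6 genes lies above every point of the matching unfed group, and in fed DIO mice Ppan overlaps the unfed mice.

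The study injected dex and S961 to change the hormone state around the meal. Against fed PBS mice, none of the 38 genes was called with dex (1.0% of all genes higher and 2.19% lower), with S961 (0.933% higher and 0.96% lower), or with dex and S961 together (2.69% higher and 7.9% lower). At an unadjusted p under 0.05 the number of genes was 1 with dex, 0 with S961, and 2 with both, against 18.5%, 14.3%, and 25.8% of all genes. The median difference of the 38 genes was −0.02 with dex, 0.03 with S961, and −0.06 with both, beside −0.10, −0.08, and −0.14 over all genes. With libraries scaled to a common median ratio these medians of the 38 genes were 0.08, 0.11, and 0.08, still with none called, and the share of higher genes among all calls went from 31.5% to 58.8% with dex, from 49.3% to 70.1% with S961, and from 25.4% to 58.2% with both. A test of whether dex acted differently with and without S961 called no gene of the 38 and no gene of the table (0.0%), with 2 of the 38 at an unadjusted p under 0.05 against 4.56% of all genes. The Kupffer cell marker sum was 50.8 to 59.8 RPKM with both agents against 62.6 to 98.5 RPKM in fed PBS mice. That of proliferating-cell markers was 0.795 to 1.48 against 1.9 to 3.68 RPKM, and their part was not tested.

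The intervals show what these comparisons could miss. With S961, the 95% interval of the difference from fed PBS was −0.04 to 0.66 for Ppan and −0.24 to 0.28 for Nop2. After both agents the smallest p of the 38 was that of Rrn3, at −0.60 ± 0.20 with an FDR of 0.057. Rrn3 measured 13.0, 12.8, 10.6, and 7.70 RPKM in the fed PBS mice and 6.81, 6.46, 9.61, and 5.57 RPKM with both agents. The groups overlapped, and fed PBS mouse 4, of the other library series, was the lowest of its group. In mice 1 to 3 alone, Rrn3 was lower with both agents (−0.65, FDR = 0.017), as was Wdr12 (−0.55, FDR = 0.048), against 8.31% of all genes, and with a term for the library series Rrn3 had an FDR of 0.0050, against 15.4% of all genes called lower.

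Each fed group was also set against the unfed PBS mice, a choice made after the values were seen. These comparisons share the same 4 unfed mice with the PBS comparison, so their values are given side by side. After S961, 12 genes were higher than in the unfed mice, against 1.25% of all genes, with a median of 0.44 (0.02 over all genes). After dex, 7 genes were higher against 1.64% of all genes, with a median of 0.39 (0.01). After both agents, 3 genes were higher against 1.32% of all genes, with a median of 0.36 (−0.04). Under median-ratio scaling 5 were higher, against 1.69% of all genes, and the share of higher genes among all calls moved from 56.7% to 70.1%. With a term for the library series, 16 genes were called with S961, 17 with dex, and 10 with both, against 2.52%, 3.56%, and 2.52% of all genes higher. The count with S961 was 2, Nop2 and Ppan, when its groups were fitted alone or when S961 mouse 1 or unfed mouse 3 was left out. That with dex was 3 without dex mouse 3 or unfed mouse 3 and 12 without dex mouse 4. Of all genes, 0.259%, 0.774%, and 0.551% were then called higher with S961, and 0.898%, 0.889%, and 2.37% with dex.

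Ppan was the gene with the smallest p in all 3. It measured 10.5, 11.0, 11.8, and 8.89 RPKM with dex, 14.7, 10.3, 10.1, and 11.7 RPKM with S961, and 9.76, 6.57, 9.18, and 10.3 RPKM with both. All 12 values exceeded the highest unfed value of 6.51 RPKM. The differences from unfed were 1.17 ± 0.17 (FDR = 0.00065) with dex, 1.31 ± 0.17 (FDR = 0.00052) with S961, and 0.94 ± 0.17 (FDR = 0.0050) with both. Nop2 was likewise called in all 3, with differences of 0.76 ± 0.12 (FDR = 0.0017), 0.82 ± 0.12 (FDR = 0.0023), and 0.65 ± 0.12 (FDR = 0.0077).

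Some genes passed in 1 hormone state against unfed and not in others. Dex was not tested against S961, and each was tested only against fed PBS, as given above. Rrs1, a large-subunit assembly factor, measured 5.85, 5.30, 5.92, and 9.41 RPKM unfed and 10.3, 11.5, 10.7, and 11.6 RPKM with dex, a difference of 0.73 ± 0.18 (FDR = 0.033). Gnl3, the nucleolar GTPase nucleostemin, measured 16.6, 14.3, 12.9, and 12.7 RPKM unfed and 28.2, 26.5, 37.3, and 18.3 RPKM with S961, a difference of 0.91 ± 0.19 (FDR = 0.020). Rrp9, a box C/D protein that binds U3 RNA, measured 2.06, 2.12, 1.37, and 1.92 RPKM unfed and 3.15, 3.64, 5.41, and 4.70 RPKM with dex, a difference of 0.99 ± 0.21 (FDR = 0.014). The call of Rrs1 was lost in 7 of the 8 fits that left out 1 library, that of Gnl3 in 5 of 8, and that of Rrp9 in 2 of 8. Against fed PBS, the same 3 genes differed by 0.41, 0.23, and 0.33, with FDRs of 0.23, 0.66, and 0.44.

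The level of the whole group, taken as the mean log2 value of the 38 genes in a library, was −0.05 to 0.06 relative to the unfed mean in the 4 unfed PBS mice and 0.16 to 0.62 in the 16 fed mice. All 16 fed libraries lay above all 4 unfed ones on this average. For single genes this was so for 4 of the 38 (Polr1b, Nop2, Ppan, and Gnl3), against 0.24% of the genes tested, and for Nop58 in 15 of the 16. Mouse 4 was the lowest of its group for 24 of the 38 genes with dex and for 22 with S961.

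**Figure D3:**
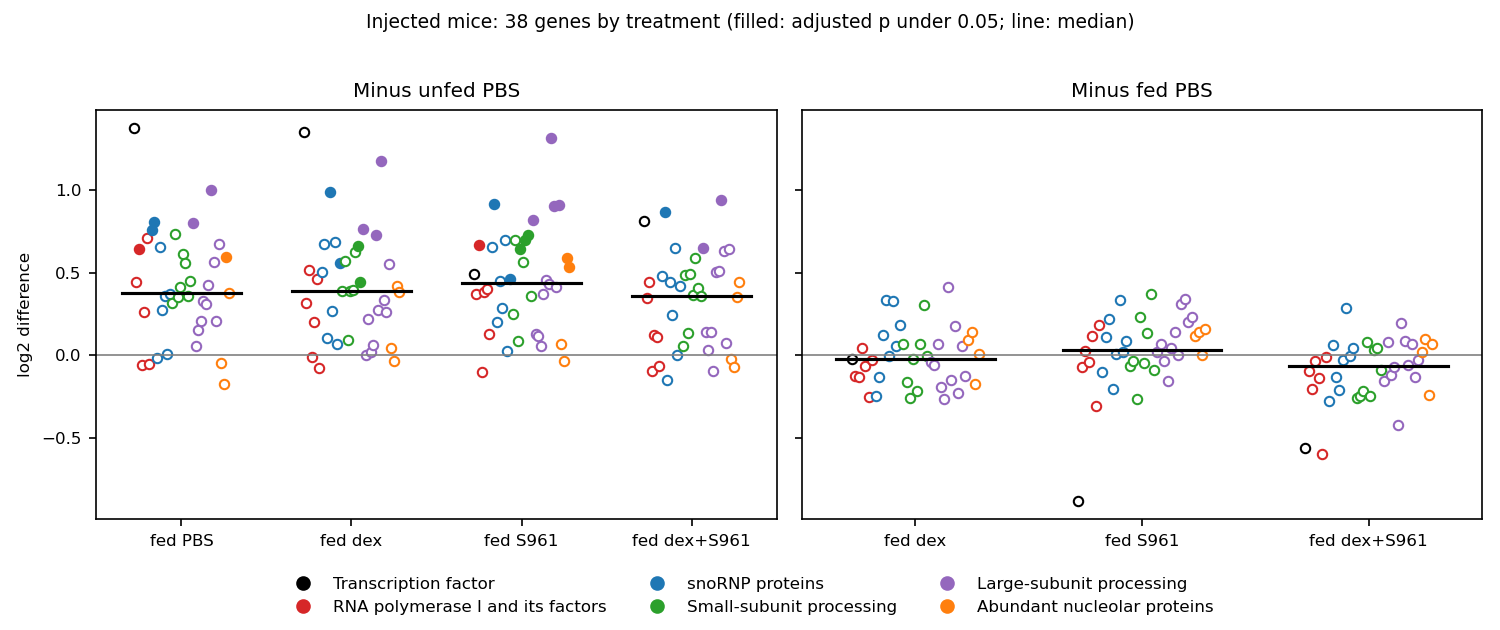
Log2 differences of the 38 genes (points, coloured by role, filled at FDR < 0.05) for the injected groups set against unfed PBS mice (left) and against fed PBS mice (right), with a line at the median. The medians on the left lie between 0.36 and 0.44, those on the right between −0.06 and 0.03, and no point on the right is filled.

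**Figure D4:**
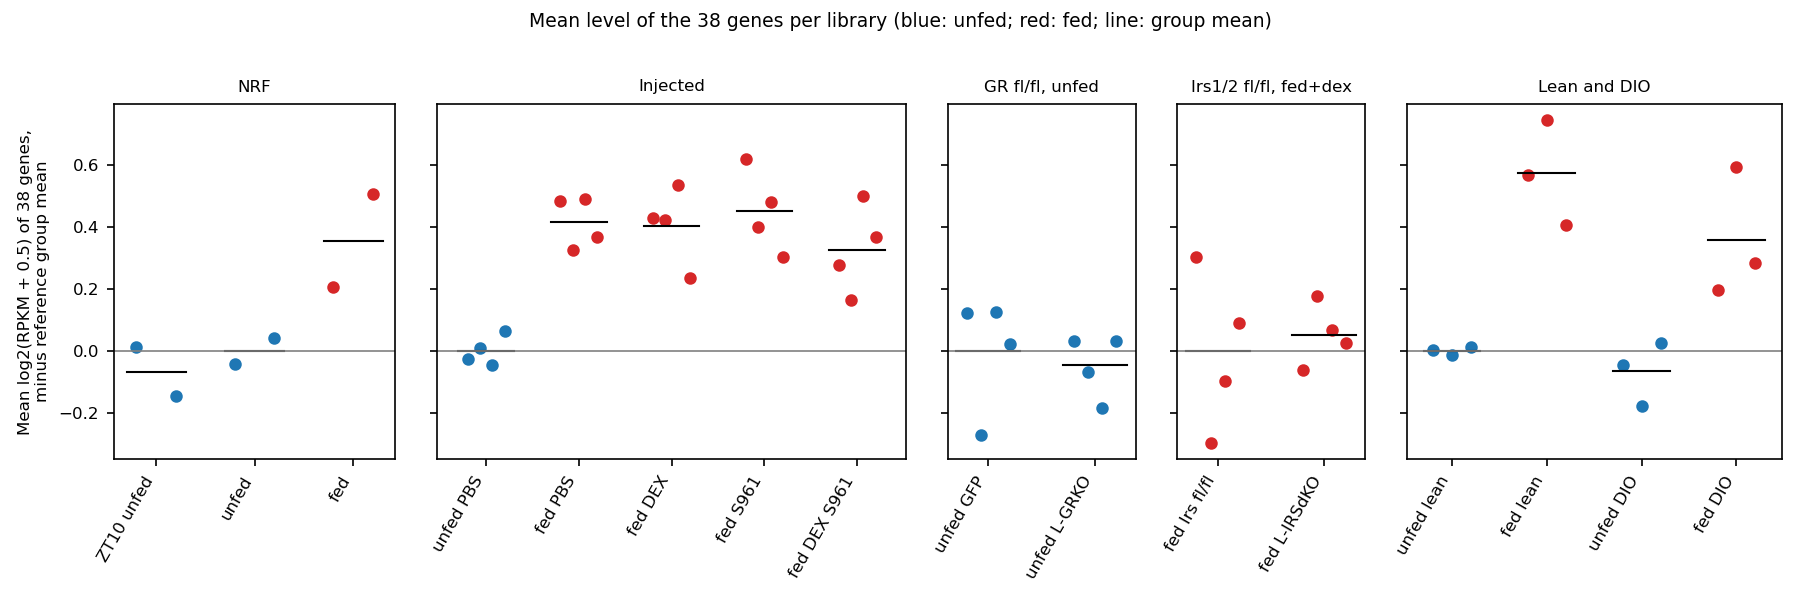
Mean log2(RPKM + 0.5) of the 38 genes in each library, minus the mean of the reference group of its experiment (vertical axis), with unfed libraries in blue, fed libraries in red, and a line at the group mean. The 16 fed injected libraries lie between 0.16 and 0.62, above the 4 unfed ones, and the GR and Irs panels show overlapping groups.

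In lean mice, the meal raised 25 of the 38 genes and lowered none, against 16.1% of the 11431 genes tested called higher and 7.28% lower. All 38 differences were above 0, against 61.6% of genes, with a median of 0.56 beside 0.08 over all genes, and for 32 genes the fed and unfed values did not overlap, against 29.0% of all genes. By role, 3 of 6 polymerase I genes, 6 of 8 snoRNP genes, 7 of 8 small-subunit genes, 8 of 11 large-subunit genes, and 1 of 4 abundant nucleolar genes were called. At FDR < 0.01, 13 of the 38 were called, against 7.0% of all genes. With the libraries scaled to a common median ratio, 19 were called, against 10.2% of all genes higher. Of the 38, 35 were above 0 with a median of 0.47, and the share of higher genes among all calls went from 68.9% to 49.7%.

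Bysl, a small-subunit factor that accompanies the late pre-40S particle, measured 4.62, 4.95, and 4.77 RPKM in unfed lean mice and 8.61, 9.63, and 7.91 RPKM in fed lean mice. The difference was 0.80 ± 0.10 (SE, n = 3 per group, FDR = 0.00054). Ppan went from 4.15, 4.83, and 5.23 RPKM to 13.5, 15.6, and 10.2 RPKM, the largest difference of the 38 at 1.36 ± 0.20 (FDR = 0.0012, 2.57-fold). Both genes were well apart between the groups.

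Nop2 went from 6.48, 7.12, and 7.22 RPKM to 15.01, 19.5, and 14.8 RPKM, a difference of 1.18 ± 0.16 (FDR = 0.00083). Mybbp1a went from 9.72, 10.2, and 10.3 RPKM to 18.7, 22.7, and 17.1 RPKM, a difference of 0.91 ± 0.13 (FDR = 0.0011). Wdr75, a small-subunit processome protein of the complex that links rRNA transcription to processing, went from 4.47, 4.34, and 4.74 RPKM to 6.52, 8.12, and 6.32 RPKM, a difference of 0.57 ± 0.12 (FDR = 0.0059). Fed mouse 2 had the highest of the fed values for 32 of the 38 genes and fed mouse 3 the lowest for 33.

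The other genes called in lean mice had differences between 0.32 (Bop1, a member of the PeBoW complex of the large subunit) and 1.05 (Nop58, FDR = 0.0066). They included Rrp1b at 1.02 and Rrp9 at 0.71, and the polymerase I genes Polr1a at 0.39, Polr1b at 0.73, and Polr1e at 0.72. Wdr12, which forms the PeBoW complex with Bop1 and Pes1, was called at 0.58, whereas Pes1 was not at 0.16 (FDR = 0.18). Ncl, Npm1, and Polr1c showed values of 0.05, 0.04, and 0.01. The count was 15 without fed lean mouse 2, and 16 without fed lean mouse 1 or without unfed lean mouse 2. Of all genes, 10.2%, 10.9%, and 10.9% were then called higher, in the same order. In fed lean mice the sums of 5 endothelial markers (39.3 to 46.3 against 54.3 to 65.6 RPKM) and 5 stellate cell markers (41.4 to 55.3 against 57.1 to 94.1 RPKM) lay below those of unfed lean mice. The sums of 5 cholangiocyte markers (13.8 to 20.9 against 10.5 to 12.8 RPKM) and 4 pancreas acinar markers (14.8 to 16.6 against 8.46 to 11.2 RPKM, with 1 and 2 of the 4 at 0) lay above. The acinar sums rested on the markers above 0 alone, and the part of these marker sums in the differences was not tested.

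In DIO mice, 14 of the 38 genes were higher after the meal and none lower, against 5.17% of all genes higher and 2.48% lower. The median difference was 0.41 beside 0.02 over all genes, 35 were above 0 against 53.9% of genes, and 23 did not overlap between the groups against 16.8% of genes. Of the 25 genes called in lean mice, 13 were among the 14 called in DIO mice, the other being Nop16, a large-subunit factor.

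Nolc1, a nucleolar chaperone of snoRNPs, measured 7.51, 6.90, and 9.57 RPKM in unfed DIO mice and 15.9, 22.3, and 16.2 RPKM in fed DIO mice. The difference was 1.13 ± 0.18 (FDR = 0.0067), the largest of the 38 in this comparison. Rrp12, which exports pre-ribosomes, went from 1.60, 2.05, and 2.47 RPKM to 3.66, 5.69, and 3.82 RPKM, a difference of 0.94 ± 0.18 (FDR = 0.014). These groups did not overlap in either gene.

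Bysl went from 4.18, 4.28, and 4.83 RPKM to 6.57, 7.99, and 6.92 RPKM, a difference of 0.63 ± 0.10 (FDR = 0.0063). Nop2 went from 6.60, 5.29, and 7.23 RPKM to 10.3, 15.4, and 11.5 RPKM, a difference of 0.90 ± 0.16 (FDR = 0.010). Wdr75 went from 4.11, 3.84, and 4.44 RPKM to 5.69, 7.50, and 6.55 RPKM, a difference of 0.61 ± 0.12 (FDR = 0.013). Fed DIO mouse 2 had the highest fed value for 35 of the 38 genes. The count of called genes was 3 without it, 5 without fed DIO mouse 3, and 7 without unfed DIO mouse 1 or 2. Of all genes, 1.22%, 1.58%, 3.74%, and 3.44% were then called higher, in the same order. A fit of the 2 DIO groups alone, with fewer mice to set the spread, called none, against 0.444% of all genes higher and 0.105% lower. The markers of proliferating cells summed to 0.823 to 0.861 RPKM in fed and 0.989 to 1.48 RPKM in unfed DIO mice, and their part was not tested.

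The meal difference was smaller in DIO than in lean mice for 29 of the 38 genes, with a median of −0.17 for the difference of differences beside −0.07 over all genes, where 39.8% of genes were above 0 against 9 of the 38. None of the 38 passed the test of this interaction (0.42% of all genes higher and 0.324% lower, the share of higher calls being 56.5%, or 71.3% under median-ratio scaling), with 1 of the 38 at an unadjusted p under 0.05 against 15.0% of all genes. Ppan came nearest, with a meal difference of 1.36 in lean mice and 0.57 in DIO mice and an interaction of −0.79 ± 0.28 (FDR = 0.22). Unfed DIO mice had 5.78, 4.65, and 7.06 RPKM of Ppan, and fed DIO mice 6.91, 11.1, and 8.75 RPKM, so that the DIO groups overlapped. These 2 meal comparisons share no mice but share the fit.

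Between diets in the same feeding state, no gene of the 38 was called. In unfed livers the median difference of DIO from lean was −0.09 beside 0.07 over all genes, where 3.53% of genes were higher and 1.7% lower, 2 of the 38 had an unadjusted p under 0.05 against 23.0% of all genes, and median-ratio scaling moved the share of higher genes among all calls from 67.5% to 45.9%. In fed livers the median was −0.24 beside 0.01, where 0.297% of all genes were higher and 0.21% lower, and 9 of the 38 were lower at an unadjusted p under 0.05, against 9.48% of all genes, and none higher. The smallest p in fed livers was that of Bysl, at −0.27 ± 0.10 with an FDR of 0.17. In unfed DIO against unfed lean mice, endothelial markers summed to 30.9 to 39.3 against 54.3 to 65.6 RPKM. Cholangiocyte markers summed to 14.4 to 25.4 against 10.5 to 12.8 RPKM. Acinar markers summed to 12.1 to 28.7 against 8.46 to 11.2 RPKM, with 3 and 2 of the 4 at 0. In fed mice, stellate cell markers summed to 56.9 to 66.5 RPKM in DIO against 41.4 to 55.3 RPKM in lean. Hepatocyte markers summed to 51800 to 55900 RPKM in unfed DIO against 56800 to 64800 RPKM in unfed lean mice. In fed mice they summed to 49300 to 52600 RPKM in DIO against 58200 to 61700 RPKM in lean. The part of all these marker sums was not tested.

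In the NRF livers, made from ribosome-depleted RNA of 2 mice per group, none of the 36 genes tested passed FDR < 0.01 after the meal, against 0.569% of all genes higher and 0.422% lower. The median difference was 0.31 beside 0.12 over all genes, 35 of 36 were above 0 against 69.9% of genes, and 14 had an unadjusted p under 0.05 against 27.7%. Median-ratio scaling moved the median over all genes to 0.00 and that of the 36 genes to 0.19, with 32 above 0, and the share of higher genes among all calls from 57.4% to 40.4%. The fed and unfed pairs did not overlap, with fed higher, for 25 of the 36 genes, against 45.6% of all genes. Without fed mouse 1 the median was 0.47, and without fed mouse 2 it was 0.16. Ppan measured 3.14 and 3.42 RPKM unfed and 5.25 and 7.48 RPKM fed, a difference of 0.84 ± 0.18 (FDR = 0.041). Rrp9 measured 1.94 and 2.03 RPKM unfed and 3.44 and 5.07 RPKM fed, a difference of 0.92 ± 0.16 (FDR = 0.024). Fed mouse 2 was the higher of the fed pair for 37 of the 38 genes, untested ones included. Fbl and Gar1 were below the level needed for testing. The sums of endothelial markers (45.9 to 51.2 against 54.8 to 59.0 RPKM) and stellate cell markers (61.2 to 67.7 against 71.1 to 74.8 RPKM) were lower in fed than in unfed livers, as was that of hepatocyte markers (29500 to 32600 against 35400 to 36100 RPKM), and their part was not tested.

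From ZT10 to ZT14-unfed, without food, no gene of the 36 was called, against 0.376% of all genes higher and 0.789% lower, and 5 had an unadjusted p under 0.05 against 26.4% of all genes. The median difference was 0.08 beside −0.10 over all genes, or 0.19 beside 0.01 under median-ratio scaling, which moved the share of higher genes among all calls from 32.3% to 61.5%. Nop16 measured 6.88 and 5.21 RPKM at ZT10 and 12.03 and 9.96 RPKM at ZT14-unfed (0.82 ± 0.15, FDR = 0.023), and Rrp9 measured 3.52 and 3.47 RPKM at ZT10, above its ZT14-unfed pair (−0.69 ± 0.16, FDR = 0.046). From ZT10 to ZT14-fed the median was 0.47 beside 0.01 over all genes, and none of the 36 passed FDR < 0.01 while 23 had an unadjusted p under 0.05 against 28.3% of genes, and 0.899% of all genes were called higher and 0.807% lower. The 3 comparisons of this experiment share mice. Acinar markers summed to 5.82 to 6.0 RPKM at ZT10, 5.11 to 5.51 RPKM at ZT14-unfed, and 5.26 to 5.57 RPKM at ZT14-fed. Of these 4 markers, 2, 3, and 1 were at 0. Lymphocyte markers summed to 2.04 to 2.28 RPKM at ZT10 against 1.56 to 2.01 RPKM at ZT14-fed. Hepatocyte markers summed to 31500 to 31900 RPKM at ZT10 against 35400 to 36100 RPKM at ZT14-unfed. The part of these marker sums was not tested.

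Myc, the transcription factor of the group, spread widely between mice of 1 group and was called in none of the planned comparisons. After the meal it measured 2.06 and 2.09 RPKM in the NRF livers against 0.185 and 0.772 RPKM unfed, a difference of 1.46 ± 0.43 (FDR = 0.082). In the injected mice it was 1.04, 1.81, 1.31, and 3.05 RPKM unfed and 5.66, 10.5, 5.54, and 2.00 RPKM fed with PBS, a difference of 1.37 ± 0.49 (FDR = 0.13). Mouse 4 of the fed group lay within the unfed range, so the groups overlapped. In mice 1 to 3 alone the difference was 2.00 (FDR = 0.020).

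With dex, Myc measured 8.28, 5.79, 4.71, and 2.84 RPKM. With S961 it measured 7.41, 1.56, 1.21, and 2.71 RPKM, a difference of −0.88 ± 0.49 from fed PBS with an FDR of 0.46 and a 95% interval of −1.91 to 0.15. In fed S961 mice 2, 3, and 4, Myc was within the unfed range, and Ppan in the same mice was 10.3, 10.1, and 11.7 RPKM, above all unfed values. Fed S961 mouse 1 had the highest Myc and the highest Ppan of its group, the latter at 14.7 RPKM. In lean mice Myc went from 1.89, 1.71, and 1.97 RPKM to 3.13, 1.86, and 2.47 RPKM (0.32, FDR = 0.70), and in DIO mice from 2.698, 1.86, and 1.40 RPKM to 0.568, 0.819, and 5.78 RPKM (−0.23, FDR = 0.82). Fed DIO mouse 3 had the highest Myc of its group while fed DIO mouse 2 had the highest level of most other genes. Whether Myc and the other genes varied together between mice was not tested.

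**Figure D5:**
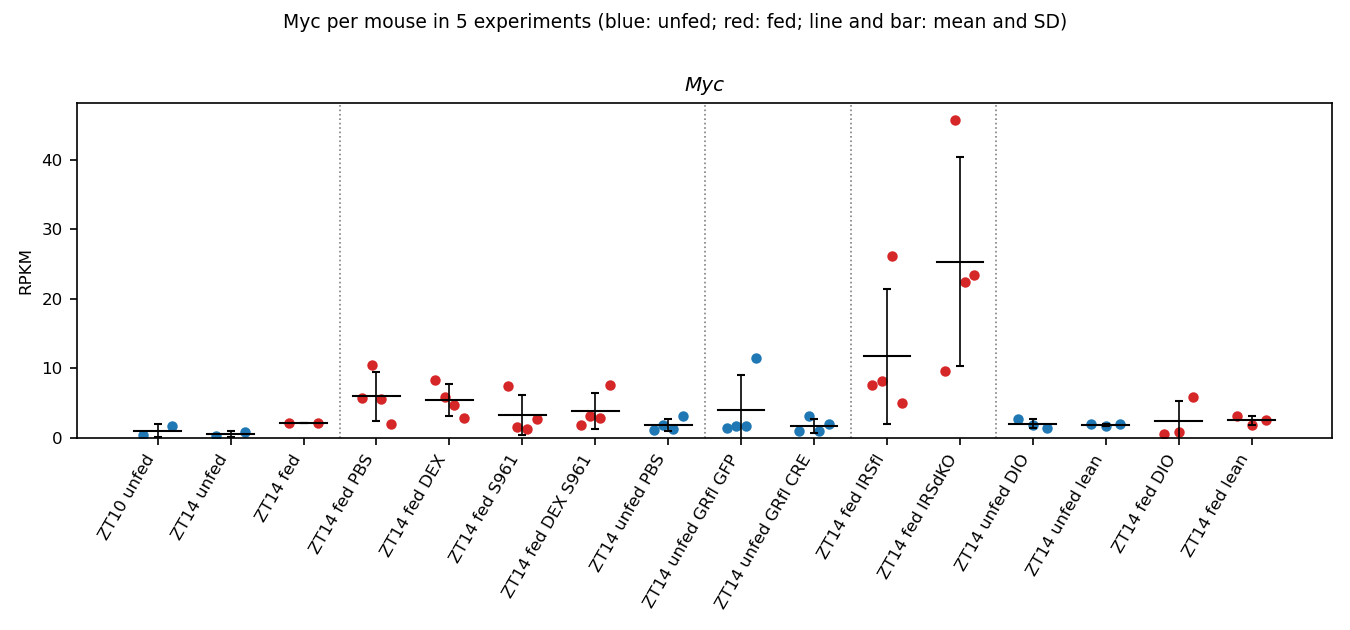
Myc in RPKM (vertical axis, from 0) in each mouse of the 16 groups, with unfed mice in blue, fed mice in red, lines and bars for the mean and SD, and dotted lines between experiments. Single mice stand apart within several groups, such as 1 GFP-treated mouse at 11.5 RPKM beside 3 at 1.32 to 1.70 RPKM.

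With loss of the glucocorticoid receptor in unfed livers, none of the 38 genes passed the limit, against 4.46% of all genes higher and 2.22% lower, and 2 of the 38 had an unadjusted p under 0.05 against 20.1% of all genes. The median difference of Cre from GFP was −0.04 beside 0.08 over all genes, and 16 of the 38 were above 0 against 66.6% of genes. Under median-ratio scaling the median of the 38 was −0.13, and the share of higher genes among all calls went from 66.7% to 44.3%. Dkc1, the pseudouridine synthase of the box H/ACA snoRNPs, came nearest, with 3.12, 3.00, 3.42, and 3.77 RPKM with GFP and 4.27, 4.44, 4.07, and 4.60 RPKM with Cre. These values did not overlap (0.34 ± 0.11, FDR = 0.090). GFP-treated mouse 2 was the lowest of its group for 30 of the 38 genes. The erythroid marker sum was 331 to 623 RPKM with Cre against 223 to 289 RPKM with GFP, and its part was not tested. For Nop2 the difference was −0.07 with a 95% interval of −0.45 to 0.32.

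In fed livers of mice given dex, 2 of the 38 genes differed between L-IRSdKO mice and floxed controls, in opposite directions, Npm1 higher and Nolc1 lower, against 9.04% of all genes higher and 8.32% lower. Npm1, a histone and ribosome chaperone, measured 20.4, 15.98, 20.6, and 19.4 RPKM in the floxed controls and 22.5, 27.8, 30, and 25.5 RPKM in the L-IRSdKO mice, a difference of 0.46 ± 0.12 (FDR = 0.028). Nolc1 measured 52.1, 36.1, 33.6, and 46.2 RPKM in the controls and 27.2, 32.3, 27.5, and 26.9 RPKM in the L-IRSdKO mice, a difference of −0.53 ± 0.14 (FDR = 0.033). The groups did not overlap in either gene, but the number called fell to 0 without control mouse 4 or without any 1 of L-IRSdKO mice 2, 3, and 4, and to 1 without control mouse 2. In these fits 4.21% to 6.6% of all genes were called higher and 4.12% to 5.29% lower.

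The median difference between the genotypes was 0.01 over the 38 genes and 0.03 over all genes. The share called was thus not above that of all genes. Myc was 7.55, 8.18, 26.2, and 4.98 RPKM in the controls and 9.57, 45.7, 22.4, and 23.4 RPKM in the L-IRSdKO mice, and the groups overlapped (1.16 ± 0.55, FDR = 0.18). Control mouse 1 was the highest of its group for 31 of the 38 genes and control mouse 2 the lowest for 24. Marker sums of 5 other cell types did not overlap, with proliferating-cell markers at 4.37 to 7.57 against 1.93 to 3.66 RPKM, lymphocyte markers at 5.86 to 6.42 against 2.83 to 5.70 RPKM, cholangiocyte markers at 7.87 to 13.9 against 19.7 to 46.2 RPKM, erythroid markers at 58.7 to 85.8 against 86.1 to 149 RPKM, and pancreas acinar markers at 5.21 to 16 against 19.9 to 26.2 RPKM. In L-IRSdKO mice 1 of the 4 erythroid and 1 of the 4 acinar markers were at 0 in every mouse, as were 3 of the 4 acinar markers and 1 of the 5 proliferation markers in the controls. Their part in the Npm1 and Nolc1 values was not tested. This experiment has no unfed mice, so the meal response itself could not be compared between the genotypes.

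The rest of the pathway was taken from lists of 157 further genes, of which 155 were tested in the injected, lean, and DIO mice. After the meal 7 of them were called higher in the injected mice, 70 in the lean mice, and 20 in the DIO mice, and 0, 7, and 0 were called lower. Over all genes 2.55%, 16.1%, and 5.17% were called higher and 0.578%, 7.28%, and 2.48% lower, against which the counts of the lists are to be read. Among the 44 other small-subunit factors, 4, 24, and 8 were called higher, and among the 46 other large-subunit factors 3, 26, and 8. Of the 10 other polymerase I genes tested 0, 3, and 1 were called higher, of the 14 RNA exosome genes 0, 6, and 2, and of the 20 RNA polymerase III genes 0, 5, and 0, with 2 of the latter called lower in the lean mice.

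By smallest p these were Mphosph10 (0.61 ± 0.10, FDR = 0.0058), a small-subunit processome protein, and Ddx55 (0.66), a large-subunit helicase, in the injected mice. In the lean mice they were Mlx (0.72 ± 0.07, FDR = 0.00025), a MYC-network partner of ChREBP, and Sirt7 (0.50), a deacetylase that acts on polymerase I. In the DIO mice they were Mlx (0.53 ± 0.07, FDR = 0.0046) and Ftsj3 (0.63), an rRNA methyltransferase. The MYC-network list moved in both directions, with 1 of 12 tested genes called higher and 4 called lower in lean mice and a median of −0.06.

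The authors' lists of GR peaks (10446), FOXO1 peaks (8546), and DNase hypersensitive sites (DHSs, 83592), which give positions on mm9 without heights, were set against the start sites of the 38 genes. All 38 starts had a DHS within 1 kb, against 84.8% of 9832 genes. None had a GR peak within 1 kb, against 5.48% of genes, and 13 of 38 (34.2%) had one within 50 kb, against 48.5%. A FOXO1 peak lay within 1 kb of 4 starts (Polr1b, Nop14, Nop16, and Wdr12; 10.5% against 12.1%) and within 50 kb of 11 (28.9% against 51.1%). Polr1b, one of the genes that rose in injected mice, had a FOXO1 peak 60 bases from its start. Nearness of a peak is a description of position and says nothing of regulation.

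Reads of some genes could be shared. At least 95% identity over at least 50% of the transcript was found to another place in the genome for 4 of the 38, namely Fbl, Pes1, Ddx18, and Npm1, the latter with 3 such places, so their levels are uncertain. Exons of SNORA51, SNORD56, and Snord57 lie within Nop56 and that of SNORD105 within Ppan, with 1.71% to 3.39% of the exon bases of the host, and 9.16% of the exon bases of Bysl overlap Ccnd3 on the opposite strand. Whether the authors counted by strand was not given in the sources used here.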

How the data were processed

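The authors enriched poly(A) RNA or depleted ribosomal RNA, aligned reads to mm9 with STAR, called regulated genes with DESeq2 on counts, and deposited RPKM values per RefSeq transcript, the unit used here. Peak lists, made by the authors with HOMER, give positions only. RPKM corrects for depth and length but not for a few abundant transcripts.

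Of 35707 RefSeq IDs, 35402 matched a symbol, and 0 value columns were unused. Values were fitted as log2(RPKM + 0.5) with limma 3.58.1 in R 4.3.3, with a variance trend and no replicate block, over genes reaching a mean of 0.5 RPKM, and adjusted by Benjamini-Hochberg. The method was tested on simulated data. Start sites were those of GENCODE on mm9, promoter sequences those of RefSeq on GRCm38.p6, and near copies were found with minimap2 2.31. Python 3.11.15 with pandas 2.3.3 and numpy 2.4.6 was used.

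The 38 genes, the role lists, and the tests were chosen with earlier results of these data known. Full statistics are given for at most 6 genes per comparison, namely Myc and those past the limit with the smallest p, and other pathway lists are represented by at most 3. Values singled out beyond this, such as Dkc1, Rrs1, and Gnl3, were chosen after they were seen. Groups against unfed PBS mice and the fits of mice 1 to 3 alone were added after the data were seen. Each choice was varied alone: the pseudocount (0.1 or 1), the filter (none or 2 RPKM), the scaling (median ratio or quantile), every RefSeq ID in place of one per symbol, the variance trend, the replicate block, the library series, the groups fitted, the FDR limit, the peak distance (20 or 100 kb), and the omission of single libraries.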

Additional observations from a re-analysis of the deposited data

Results flagged for a closer look

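In groups of 4 mice, the highest or lowest value of a gene was examined for its distance from the others by Dixon's test. It lay beyond the 95% critical ratio in 16 of 342 groups of 4 (4.68%), where chance gives about 1 in 20, and groups of 2 or 3 mice were not tested. Myc in GFP-treated mouse 4 was 11.45 RPKM beside 1.318 to 1.695 RPKM in the other 3 mice.

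Fed dex mouse 4 stood apart in 3 genes, low in Nop56 at 5.141 RPKM (others 10.09 to 10.88) and Rrp12 at 2.956 RPKM (others 4.273 to 4.463), and high in Ncl at 28.88 RPKM (others 21.58 to 22.55). Unfed PBS mouse 4 stood apart in Rrp12, at 3.086 RPKM beside 2.123 to 2.247, and in Brix1, at 5.299 RPKM beside 7.66 to 8.016. Fed PBS mouse 1 had 13.76 RPKM of Nop16 beside 11.72 to 11.92. The fed mouse 3 with dex and S961 was high in Nop2, at 13.84 RPKM beside 9.695 to 10.19, and in Wdr12, at 4.809 RPKM beside 3.048 to 3.23.

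In the GFP-treated mice, Nob1 was 3.037 RPKM in mouse 2 beside 4.46 to 4.766, and Rrp1b was 1.474 RPKM in mouse 3 beside 0.912 to 0.993. Among the floxed controls of the L-IRSdKO mice, Gar1 was 7.023 RPKM in mouse 2 beside 13.77 to 15.18, and Ddx18 was 7.473 RPKM in mouse 1 beside 4.969 to 5.251. L-IRSdKO mouse 2 was high in Dkc1, at 9.665 RPKM beside 7.089 to 7.334, and in Nolc1, at 32.28 RPKM beside 26.94 to 27.46. Nop14 was 15.95 RPKM in L-IRSdKO mouse 1 beside 18.85 to 18.96.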

How the results depend on the processing

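Of the alternatives run, none reversed a called gene, and 344 single-gene results lost their call against 990 that did not change and 1 that gained it. Nop2 and Ppan kept their call in every alternative of the PBS meal comparison, 11 genes did so in lean mice, and none in DIO or L-IRSdKO mice. At the other FDR limit (0.05 for NRF, 0.01 elsewhere) the number of genes called was 3 from ZT10 to ZT14-unfed, 2 after the NRF meal, 6 from ZT10 to ZT14-fed, 2 for the PBS meal, 3 for dex, 2 for S961 against unfed, 13 in lean, 2 in DIO, and 0 in L-IRSdKO mice. In the same order, 1.98%, 4.87%, 4.89%, 0.418%, 0.64%, 0.365%, 7.0%, 0.962%, and 2.44% of all genes were then called higher. Those called lower were 7.01%, 1.89%, 4.45%, 0.169%, 0.587%, 0.16%, 3.23%, 0.262%, and 2.02%. From ZT10 to ZT14-fed, 1 gene (Nop16) passed at a mean of at least 2 RPKM or with the compared groups alone. Of all genes, 1.84% and 1.45% were called higher at these settings. For the PBS meal the count was 3 under median-ratio and under quantile scaling, 15 with a term for the library series, and 14 in mice 1 to 3 alone. Against unfed, dex gave 4 genes without the filter, 17 with the series term, and 20 in mice 1 to 3, S961 gave 7 without the filter and 2 with its groups alone, and both agents gave 5 under median-ratio scaling, 5 with the groups alone, 10 with the series term, and 6 in mice 1 to 3. Both agents against fed PBS gave 1 with the series term and 2 in mice 1 to 3. L-IRSdKO mice gave 1 without the variance trend, and DIO mice 8 without the filter and 0 with the DIO groups alone. The share of all genes called higher moved too, for the PBS meal from 2.55% to 1.01% and 1.0% under median-ratio and quantile scaling, 7.41% with the series term, 4.87% in mice 1 to 3, and 6.72% with the block, and against unfed from 1.64% to 3.7% for dex and from 1.32% to 1.58% for both agents in mice 1 to 3, from 1.25% to 0.259% for S961 with its groups alone, and to 0.444% from 5.17% in DIO mice with the DIO groups alone. Without the filter, the share was 0.946% for dex and 0.527% for S961 against unfed, and 2.0% in DIO mice. For both agents against unfed it was 1.69% under median-ratio scaling and 1.77% with the groups alone. The causes were not tested.

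With the replicate number as a block, the counts were 17 for the PBS meal, 15, 12, and 1 for dex against unfed, both agents against unfed, and both agents against fed PBS, and 0 for L-IRSdKO. Of all genes, 6.72%, 3.17%, 2.53%, 4.02%, and 5.8% were then called higher, in the same order. Those called lower were 1.53%, 3.54%, 2.12%, 14.1%, and 5.31%. All 12 genes called with S961 against unfed kept their call with the block, against 2.4% of all genes higher. Numbers were not taken as pairs in the main fits. Deviations of same-numbered mice correlated over 0.1 in 0 of 6, 27 of 40, 1 of 4, 0 of 4, and 3 of 18 pairs in the NRF, injected, L-GRKO, L-IRSdKO, and obesity experiments. In the injected mice the median correlation was 0.14 for same-numbered pairs and −0.05 for the others. The main fit of the injected mice holds no term for this, so its counts are to be read beside those with the block and the series term.

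With each library left out in turn, the counts ranged from 2 to 8 for the PBS meal, 0 to 1 for both agents against fed PBS, 3 to 12, 2 to 10, and 2 to 4 for dex, S961, and both against unfed, 0 to 3 for L-IRSdKO, 15 to 24 in lean, and 3 to 11 in DIO mice, and stayed at 0 in the other comparisons. Over the same fits, the share of all genes called higher was 0.595% to 2.8% for the PBS meal. It was 0.844% to 2.37%, 0.462% to 1.41%, and 0.765% to 1.08% for dex, S961, and both against unfed. In lean mice it was 10.2% to 13.6%, and in DIO mice 1.22% to 5.45%. Against unfed, S961 gave 2 genes without S961 mouse 1 or unfed mouse 3, 3 without S961 mouse 3 or unfed mouse 2, 5 without S961 mouse 2 or unfed mouse 1, and 6 without unfed mouse 4. Of all genes, 0.774%, 0.551%, 0.622%, 0.489%, 0.685%, 0.462%, and 0.854% were then called higher, in the same order. Dex gave 3 without dex mouse 3 or unfed mouse 3, 4 without dex mouse 1 or 2 or unfed mouse 1 or 2, and 12 without dex mouse 4. Of all genes, 0.898%, 0.889%, 1.22%, 1.08%, 0.933%, 0.844%, and 2.37% were called higher in these dex fits, in the same order. The NRF meal median was 0.47 without fed mouse 1 and 0.16 without fed mouse 2. Within 20 kb, a GR peak lay near 6 and a FOXO1 peak near 6 of the starts, and within 100 kb near 24 and 21. With 2 to 4 mice per group and an unknown number of reads per gene, small differences could not be detected.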
